A study of Mus musculus with 18 samples.

Results

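Lymphatic endothelial cells (LEC) line the vessels that drain tissue fluid, carry immune cells and take up fat. The change described here is that of LEC from mouse embryos between embryonic day 16.5 (E16.5) and E18.5, the last days before birth. All 3 LEC arrays of each day were used, which is 6 of the 18 arrays of the study, and the members are the 19938 genes measured. Blood vascular endothelial cells (BEC) of E16.5 and E18.5, and LEC of E14.5, with 3 arrays each, serve for comparison. The labels give no strain, genotype or treatment for any group. The tissue is labelled only as embryonic. The replicates of a group come from separate litters. For the preparation of the cells and their RNA, the labels cite an earlier publication, which was not used here.

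In the second part of gestation the lymphatic network is remodelled. The early plexus of dividing cells becomes a tree of capillaries, which take up fluid through flap-like openings, and of collecting vessels, which hold valves. Prox1 is the transcription factor that sets lymphatic fate, Flt4 is the receptor for the growth factor Vegfc, and Lyve1 is a hyaluronan receptor of lymphatic capillaries. Gata2, Foxc2, Gja4 and Nfatc1 are needed for valves, and Klf2 and Klf4 respond to flow.

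The labelled cell type was carried by all 6 arrays. Prox1 lay between 10.92 and 11.20, Lyve1 between 12.20 and 12.62 and Flt4 between 10.94 and 11.31 on the log2 scale of the deposited values. The general endothelial genes Pecam1 and Cdh5 lay between 10.47 and 11.14. As a mark of what an unexpressed gene reads, 95% of values of 1194 olfactory and vomeronasal receptor genes lay under 4.66, called the dim bound here. Ccl21a, a further lymphatic marker, has no single-gene probe set in the annotation used.

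The E18.5 arrays held a narrower range of values than the E16.5 arrays. The interquartile range over all genes was 3.55 ± 0.028 (SD, n = 3) at E16.5 and 3.19 ± 0.073 at E18.5, with no overlap. The exact two-sided permutation p was 0.1, the smallest that 3 against 3 arrays allow. The 5th percentile moved from 2.64 to 2.88 and the 95th percentile from 9.56 to 9.54. Replicates also varied more at E18.5, with a median SD of a gene of 0.189 against 0.128 at E16.5. Among the 3988 dimmest of 5 equal groups of genes the median change was 0.215, with 434 genes higher and 14 lower. Among the 3987 genes with a mean of 6.61 to 8.0, the median change was -0.224, with 288 higher and 1146 lower. In the brightest group the median change was -0.068, with 460 higher and 842 lower. After quantile normalization the dimmest group had a median change of 0.002, with 73 higher and 67 lower. The group of 6.61 to 8.0 then still had a median of -0.143, with 364 higher and 842 lower. In BEC the median changes of the dimmest group and of the group of 6.61 to 8.0 were 0.222 and -0.21. A rise of a dim gene or a fall of a moderately bright one by about 0.2 is no larger than these medians.

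**Figure D1:**
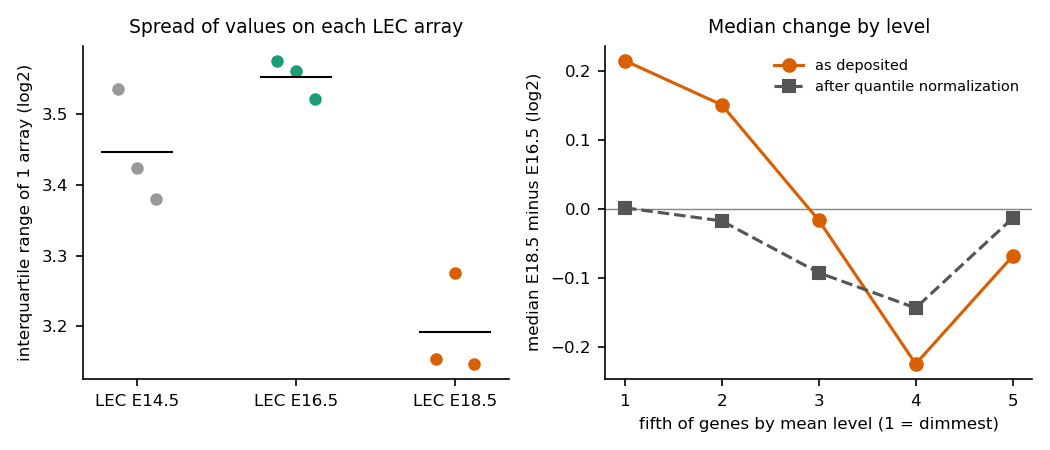
Left, the interquartile range of the log2 values on each LEC array by age (points, 1 array each; lines, means of 3). Right, the median E18.5 minus E16.5 difference in LEC (log2) for 5 equal groups of genes ranked by mean level, as deposited and after quantile normalization. The 3 E18.5 arrays lie under all E16.5 arrays, and the rise of the dimmest group, 0.215 as deposited, is 0.002 after quantile normalization.

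Of the 19938 genes, 4645 (23.3%) differed between the days in LEC at an adjusted p under 0.05 in limma. Of these, 2011 (10.1%) were higher and 2634 (13.2%) lower at E18.5. A rise of at least 1, which is a 2-fold change, was called for 326 genes (1.64%) and a fall of that size for 295 (1.48%). At the edge of the call, Nudt4 (0.43 ± 0.14, limma SE) was just inside and Tmtc1 (0.37 ± 0.12) just outside. Leaving out an E16.5 array lowered both counts more than leaving out an E18.5 array. Without E16.5 replicate 1, 2 or 3, the higher genes numbered 1028, 1160 and 1122 and the lower genes 1468, 1790 and 1555. A shift of every array to a common median turned the split into 1201 higher and 3838 lower and moved the median of all genes from 0.052 to -0.066. No gene was called in opposite directions by these fits. In RNA from a whole cell preparation, fewer cells of a type and less RNA per cell cannot be told apart.

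Of 18 genes of lymphatic identity, 2 rose and 3 fell, against 10.1% higher and 13.2% lower over all genes, and the median change was 0.05, against 0.052. These shares lie near those of all genes. Fgl2, a secreted fibrinogen-like protein, read 11.53, 11.42 and 11.50 on the E16.5 arrays and 12.05, 12.41 and 12.21 on the E18.5 arrays. All E18.5 arrays were above all E16.5 arrays, and the rise was 0.74 ± 0.13 (adjusted p = 0.0041). Sema3d, a guidance ligand, rose by 0.42 ± 0.12. Ptx3, a secreted pattern recognition protein, fell by 0.64 ± 0.19, Thy1, a surface glycoprotein, fell by 0.42 ± 0.13, and Tbx1, a transcription factor of lymphatic growth, fell by 0.42 ± 0.12. These 4 smaller changes did not hold when single arrays were left out, with adjusted p-values up to 0.12 for Ptx3 and Sema3d and 0.13 for Thy1 and Tbx1. Without E16.5 replicate 1, 2 or 3 the list counted 1, 0 and 0 lower genes, and without E18.5 replicate 2 it counted 1.

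Prox1 read 10.92, 10.99 and 11.15 at E16.5 against 11.12, 11.20 and 11.07 at E18.5, a difference of 0.11 ± 0.13 (adjusted p = 0.56). The groups overlapped. Lyve1 read 12.20, 12.25 and 12.21 and then 12.36, 12.62 and 12.51, without overlap, yet the difference of 0.28 ± 0.13 missed the threshold (adjusted p = 0.14). Mmrn1, a secreted multimerin of LEC, differed by 0.28 ± 0.13 and Nr2f2, which acts with Prox1, by 0.37 ± 0.15. Reln differed by 0.11 ± 0.15 and Flt4 by -0.09 ± 0.14, and neither passed. The verdict on these bright genes depended on the scaling. With every array brought to a common median and interquartile range, Lyve1 (0.74), Mmrn1 (0.74), Nr2f2 (0.63), Prox1 (0.46) and Reln (0.49) passed the test as higher. Ptx3 (-0.41), Tbx1 (-0.25) and Thy1 (-0.17) then did not pass, and the list counted 7 higher and none lower of 18, with a median of 0.31. With quantile normalization the list counted 2 higher and none lower, since the same 3 falls narrowly missed, with adjusted p-values of 0.051 to 0.06. With a common median alone it counted 1 higher and 3 lower, with a median of -0.067.

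**Figure D2:**
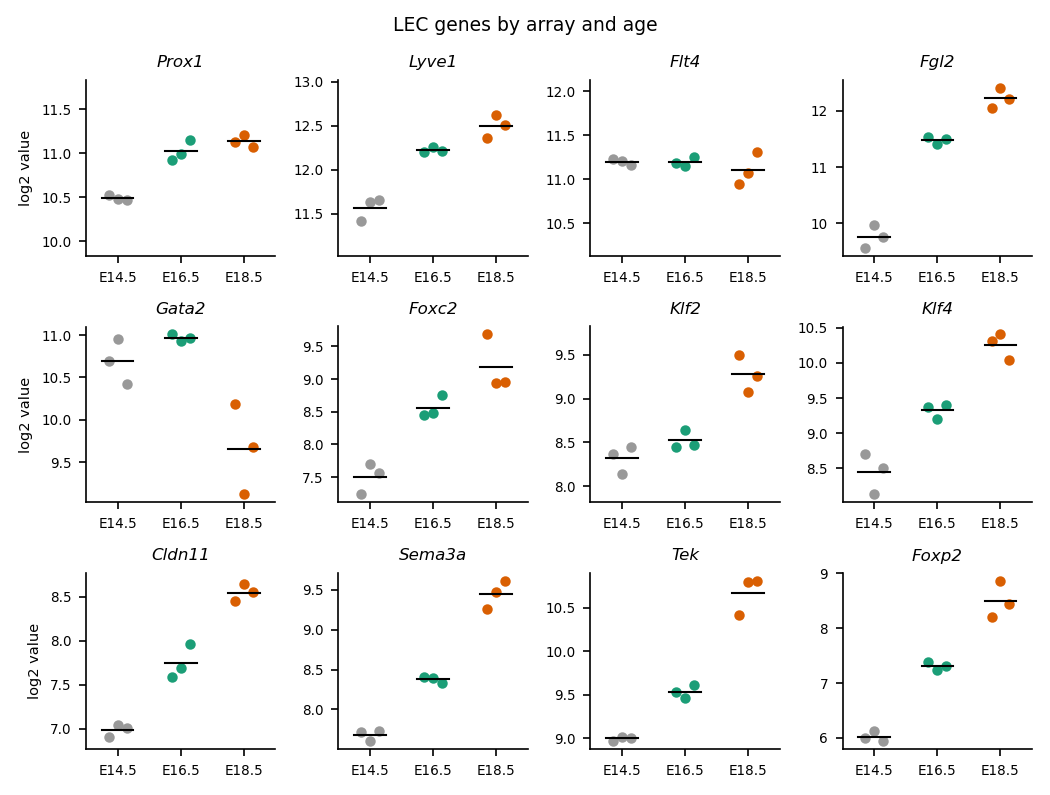
Log2 values of 12 genes on the 9 LEC arrays by age (points, 1 array each; lines, means of 3; axes differ between panels and span at least 2 log2 units). As deposited, Prox1, Lyve1 and Flt4 shifted by less than 0.3 from E16.5 to E18.5, Gata2 fell by 1.30, and Klf4, Sema3a, Tek and Foxp2 rose by 0.92 to 1.19.

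Among 23 genes of valves and of the response to flow, 11 rose and 2 fell, with a median of 0.29, against 10.1% higher, 13.2% lower and a median of 0.052 over all genes. Without E18.5 replicate 3 the median was 0.173, with 9 higher. When genes under the dim bound at both ages were filtered out, 10 of 22 rose, with a median of 0.209. Klf4 read 9.37, 9.21 and 9.40 at E16.5 against 10.31, 10.40 and 10.04 at E18.5, a rise of 0.92 ± 0.14 (adjusted p = 0.0017). Klf2 rose by 0.75 ± 0.14, from 8.45, 8.65 and 8.47 to 9.49, 9.08 and 9.25. Both flow-responsive factors were thus higher on every E18.5 array. Sema3a, a repulsive cue for smooth muscle and nerves at valves, rose by 1.07 ± 0.13, from 8.34 to 8.41 at E16.5 up to 9.26 to 9.61. Lama5, a laminin chain of the valve leaflet matrix, rose by 1.03 ± 0.18, and Cldn11, a tight junction protein enriched in valve cells, by 0.80 ± 0.14. Gja1, a gap junction protein, rose by 0.67 ± 0.13.

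The factors Foxc2 and Foxc1 and the ligand Efnb2 were called as higher only narrowly. Foxc2 read 8.45, 8.48 and 8.75 and then 9.68, 8.93 and 8.95, where replicate 1 of E18.5 stood highest, and the difference was 0.63 ± 0.20 (adjusted p = 0.046). Without that array it was 0.38 (adjusted p = 0.086). Foxc1 rose by 0.45 ± 0.14, Efnb2 by 0.50 ± 0.14 and the matrix protein Fn1 by 0.51 ± 0.12. The calls of these 4 genes were lost when single E16.5 arrays were left out, and those of Foxc2, Foxc1 and Efnb2 with a common median. Gdf2 was also called as higher, but not without any single E16.5 array or without E18.5 replicate 1 or 2 (adjusted p = 0.09 to 0.14). Without E16.5 replicate 1, 2 or 3, the list counted 6, 6 and 7 higher genes. With a common median it counted 7 and with the replicate numbers as a block 8.

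Gata2 went the other way. It read 11.01, 10.93 and 10.96 at E16.5 against 10.19, 9.12 and 9.68 at E18.5, so that every E18.5 array was lower and the E18.5 arrays differed widely from one another. Gata2 fell by 1.30 ± 0.22 (adjusted p = 0.0032), and its difference was -1.02 with a common median and interquartile range. Gata2 is also a factor of mast cells, and other mast cell genes moved over the same days. Of the 12 mast cell markers measured, Gata2 among them, 4 rose and 5 fell, against 10.1% and 13.2% of all genes. The summed linear level of the 12 ranged from 26838 to 28000 at E16.5 and from 21482 to 27569 at E18.5. The part of mast cells in the fall of Gata2 was not tested. Itga9, an integrin of valve leaflets, fell by 0.42 ± 0.14 (adjusted p = 0.047), a call that did not hold without any single one of the 6 arrays, with adjusted p-values of 0.056 to 0.17. Gja4 (-0.41 ± 0.15, adjusted p = 0.076) and Nfatc1 (-0.12 ± 0.12) did not pass, nor did the flow sensor Piezo1 (-0.04 ± 0.14). The planar polarity genes Celsr1 and Vangl2 differed by -0.16 ± 0.13 and 0.13 ± 0.14.

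Of 16 genes that distinguish lymphatic capillaries and collecting vessels, 8 rose and 2 fell, with a median of 0.50, against 10.1% higher and 13.2% lower over all genes. When genes under the dim bound at both ages were filtered out, 7 of 15 rose, with a median of 0.42. With quantile normalization 7 rose, with a median of 0.367. Foxp2, a transcription factor of collecting vessels, read 7.38, 7.23 and 7.31 at E16.5 against 8.20, 8.86 and 8.44 at E18.5, a rise of 1.19 ± 0.17 (adjusted p = 0.0013). Ptn, a secreted growth factor, rose by 1.21 ± 0.14, and the neuropeptide gene Nts rose by 1.02 ± 0.20. The chemokine scavenger Ackr2, a product of lymphatic capillaries, rose by 0.88 ± 0.19, from 6.29 to 6.52 up to 6.79 to 7.55. Slco2b1, an organic anion transporter, fell by 0.76 ± 0.14, from 8.73 to 9.07 down to 8.01 to 8.22. Mrc1, the mannose receptor, rose by 0.95 ± 0.21, and it is shared with macrophages, whose markers also rose as given further on. The other lower gene, Jam3 (-0.54 ± 0.15), lost its call without any single E16.5 array or without E18.5 replicate 1 or 2.

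Among growth factor receptors, Tek, the angiopoietin receptor, had the clearest change. It read 9.53, 9.46 and 9.61 at E16.5 against 10.41, 10.80 and 10.81 at E18.5, a rise of 1.14 ± 0.14 (adjusted p = 0.00076). Its relative Tie1 differed by -0.16 ± 0.14 (adjusted p = 0.44), with overlapping arrays. Of 22 genes of VEGF, angiopoietin and adrenomedullin signalling, 5 rose and 1 fell, with a median of 0.02, against 10.1% higher and 13.2% lower over all genes. Calcrl, the receptor for adrenomedullin, rose by 0.58 ± 0.12, and the ligand Vegfd by 0.86 ± 0.18. The lower gene was Angpt2, the angiopoietin made by endothelium (-0.46 ± 0.14), which was not called without E16.5 replicate 1 or 3 or E18.5 replicate 1 or 3 (adjusted p = 0.15, 0.12, 0.086 and 0.076) or with the replicate numbers as a block (adjusted p = 0.063). Flt1 (0.73 ± 0.16) and Nrp1 (1.06 ± 0.21), receptors that blood endothelium carries at higher levels, rose as well.

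Other genes of blood endothelial identity rose along with Flt1 and Nrp1. Of 14 measured, 6 rose and 1 fell, with a median of 0.70, against 10.1% higher and 13.2% lower over all genes. The median was 0.45 without E18.5 replicate 2. Cd93, a C-type lectin of endothelium, read 8.76, 8.70 and 8.82 at E16.5 against 9.44, 9.85 and 9.93 at E18.5, a rise of 0.98 ± 0.15 (adjusted p = 0.002). Vwf, the clotting protein of blood vessels, rose by 0.91 ± 0.21, from 5.27 to 6.13 up to 6.53 to 6.88. Jam2, a junction molecule, rose by 0.90 ± 0.21, and without E16.5 replicate 2 its adjusted p was 0.051. The lower gene was Cd34, a sialomucin of young vessels (-0.74 ± 0.23), which was not called without E16.5 replicate 1, 2 or 3 or E18.5 replicate 1 (adjusted p = 0.075, 0.1, 0.1 and 0.053) or with quantile normalization (adjusted p = 0.058). The summed linear level of the list ranged from 2191 to 2795 at E16.5 and from 2565 to 3954 at E18.5. In BEC themselves 6 of the 14 rose over the same days, against 11.4% of all genes. The part of blood endothelial cells in the LEC samples was not tested.

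Of 15 adhesion and chemokine genes, which guide white blood cells, 8 rose, 1 fell and 6 did not pass, with a median of 0.49, against 10.1% higher and 13.2% lower over all genes. Alcam, an adhesion molecule for leukocytes, read 5.07, 5.15 and 5.71 at E16.5 and between 7.87 and 8.02 at E18.5. It rose by 2.65 ± 0.17 (adjusted p = 5.2e-05). Sele, the selectin of activated endothelium, rose by 2.07 ± 0.36, from 5.44 to 5.58 up to 7.32, 8.65 and 6.82, with replicate 2 of E18.5 highest. The monocyte chemokine Ccl2 rose by 1.28 ± 0.16, the chemokine scavenger Ackr3 by 1.26 ± 0.20 and the adhesion molecule Vcam1 by 0.88 ± 0.17. The lower gene was Madcam1, an addressin of gut and lymph node vessels (-0.53 ± 0.16), which was called in the fit without E18.5 replicate 1 and in none of the other 5 that left out an array (adjusted p = 0.054 to 0.14). In BEC 8 of the 15 rose and 1 fell over the same days, against 11.4% and 12.3% of all genes, with a median of 0.644.

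Of 18 basement membrane and matrix genes, 6 rose and 3 fell, with a median of 0.29, against 10.1% higher and 13.2% lower over all genes. Eln, elastin, rose by 1.04 ± 0.20, from 7.13, 7.08 and 7.65 to 8.10, 8.17 and 8.71. Emilin1, which tethers lymphatic endothelium to elastic fibres, fell by 0.63 ± 0.14, a call lost without E16.5 replicate 1 or 3 (adjusted p = 0.052 in both). The list counted 2 and 3 higher genes without E16.5 replicate 1 or 2, and without E16.5 replicate 1 or 3 no lower gene passed. In the TGF-beta and BMP list, 3 of 20 rose and 4 fell, shares near those of all genes. Ltbp1, which stores latent TGF-beta in matrix, rose by 1.53 ± 0.15, from 6.91, 6.66 and 7.06 to 8.28, 8.37 and 8.57. The BMP target genes Id3 and Id1 fell by 1.05 ± 0.17 and 0.75 ± 0.16, and the co-receptor Eng fell by 0.77 ± 0.13. In the Notch list, 1 of 16 rose and 3 fell, in all near the 23.3% called over all genes, and the rise was not called without E16.5 replicate 1 or E18.5 replicate 2. Its largest fall was that of Mfng, a glycosyltransferase that modifies Notch at -1.31 ± 0.16, from 6.61 to 6.72 down to 5.01 to 5.58. In the IGF list, 5 of 16 rose and 3 fell, against 10.1% and 13.2% of all genes. Without E16.5 replicate 1 the list counted 1 lower gene. Igfbp5, a secreted binding protein of insulin-like growth factors, rose by 2.40 ± 0.20, from 5.72, 5.95 and 6.29 to 8.14, 8.22 and 8.79. Igfbp7 fell by 0.74 ± 0.13.

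**Figure D3:**
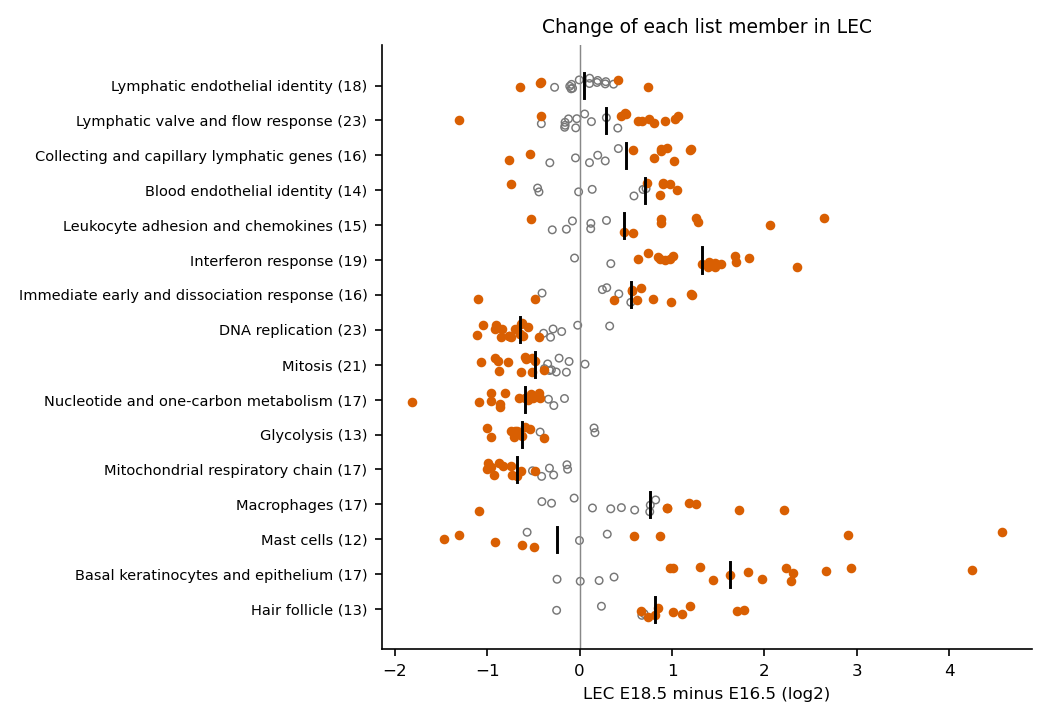
E18.5 minus E16.5 difference in LEC (log2) of every measured member of 16 gene lists (list size in brackets). Filled points passed the test at an adjusted p under 0.05, open points did not, and bars are list medians. Replication and metabolic members lie mostly left of 0, and interferon and basal keratinocyte members mostly right of it, with medians of 1.32 and 1.63.

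Growth genes fell. Of 23 genes of DNA replication, 18 fell, against 13.2% of all genes. The other 5 did not pass, and the median was -0.64. Lower genes were more frequent at higher levels, with 1146 of the 3987 genes of 6.61 to 8.0. Counted from the median change of each gene's group by level, the list median was -0.489. Mcm5, a subunit of the helicase that opens DNA, read 8.82, 8.80 and 8.86 at E16.5 against 7.76, 8.07 and 7.90 at E18.5. No E18.5 array reached the E16.5 range, and it fell by 0.92 ± 0.13 (adjusted p = 0.0013). Pold1, the catalytic subunit of a replicative polymerase, fell by 1.11 ± 0.14, and Gins1, a helicase cofactor, by 1.05 ± 0.14. Pcna, the sliding clamp, went against the group with a difference of 0.33 ± 0.13 (adjusted p = 0.091).

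Of 21 genes of mitosis, 12 fell, against 13.2% of all genes, and 9 did not pass, with a median of -0.48. Cdk1, the kinase that drives entry into mitosis, read 8.82, 8.78 and 8.78 and then 7.59, 7.78 and 7.80, and it fell by 1.07 ± 0.12 (adjusted p = 0.00053). Kinases of the spindle and its checkpoint fell too, namely Aurkb (-0.92 ± 0.12), Plk1 (-0.88 ± 0.12) and Bub1b (-0.87 ± 0.14). The common proliferation markers Mki67 (-0.14 ± 0.12) and Top2a (-0.22 ± 0.13) did not pass, with adjusted p-values of 0.41 and 0.25. The mitosis list counted 6 and 7 lower genes without E16.5 replicate 1 or 2, and with a common median and interquartile range 7. The fall did not begin at this step, since 16 of the 23 replication genes and 7 of the 21 mitosis genes had already fallen from E14.5 to E16.5, against 7.29% of all genes. In BEC, 18 and 7 of them fell from E16.5 to E18.5, against 12.3% of all genes.

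Cell cycle motifs were counted in the promoters of these genes, and the stretches of Mcm5 and Cdk1 are shown as those with a match upstream of the start. Among the other listed members with the largest falls that were looked up, Pold1 and Mcm2 held no E2F-type match there and Plk1 and Bub1b no CHR match. RefSeq promoter windows of 250 bases before to 50 after the start (GRCm38.p6) were found for 19 replication genes and 17 mitosis genes. The E2F-type motif TTTNNCGC, on either strand, was in 11 of the 19 (57.9%) and in 1 of the 17 (5.9%), against 5.9% of all 27025 genes with a window. The CHR motif TTTGAA was in 3 of the 19 (15.8%) and in 13 of the 17 (76.5%), against 20.2% of all genes. The Mcm5 stretch is chr8:75109320-75109407 on the plus strand, with a pair of overlapping E2F-type matches in capitals, and the Cdk1 stretch is chr10:69352913-69352967 on the minus strand, with a CHR match in capitals. Both lie upstream of the start, and a match describes letters, not binding.
Mcm5: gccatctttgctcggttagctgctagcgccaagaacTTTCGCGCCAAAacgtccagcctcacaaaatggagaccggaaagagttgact
Cdk1: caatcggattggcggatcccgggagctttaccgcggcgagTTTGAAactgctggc

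Enzymes that feed growth fell with them. Of 17 genes of nucleotide and one-carbon metabolism, 14 fell, against 13.2% of all genes. The other 3 did not pass, and the median was -0.59. Phgdh, the first enzyme of serine synthesis, read 8.29, 8.27 and 8.30 at E14.5, 7.45, 7.20 and 7.44 at E16.5 against 5.18, 5.72 and 5.73 at E18.5. Each age lay below the one before, and over the late step it fell by 1.82 ± 0.17 (adjusted p = 0.00019). Mthfd2, a mitochondrial folate enzyme, fell by 1.09 ± 0.14. Psat1, the next enzyme after Phgdh, fell by 0.96 ± 0.14, and Cad, which starts pyrimidine synthesis, fell by 0.96 ± 0.12. Leaving out E16.5 replicate 1, 2 or 3 or E18.5 replicate 1 left 8, 8, 9 and 8 lower genes. The list had 15 lower members over the early step, against 7.29% of all genes, and 13 in BEC, against 12.3%.

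Of 13 glycolysis genes, 10 fell, against 13.2% of all genes, and 3 did not pass, with a median of -0.62. Pgam1, phosphoglycerate mutase, read 9.22, 9.10 and 9.27 at E16.5 against 8.35, 8.09 and 8.13 at E18.5, so that it fell by 1.00 ± 0.13 (adjusted p = 0.00086). Tpi1 fell by 0.95 ± 0.15, and Hk2, an inducible hexokinase, by 0.71 ± 0.15. Pfkl fell by 0.74 ± 0.18, a call lost without E16.5 replicate 1 or 3 (adjusted p = 0.054 and 0.061). Pfkfb3, the activator of glycolysis in sprouting endothelium, differed by 0.17 ± 0.17. Without E16.5 replicate 3, and likewise with the arrays brought to a common median and interquartile range, the count of lower genes was 6 and 5. In BEC, 1 of the 13 fell, against 12.3% of all genes, with a median of -0.22. By limma's test of the difference between the cell types, 0 of the 13 passed at an adjusted p under 0.05. At an unadjusted p under 0.05, 7 of the 13 changed more negatively in LEC and 0 more positively. By the same measure 2834 of all 19938 genes differed in either direction. Such counts were not particular to glycolysis, since 8 of 19 interferon response genes changed more negatively in LEC and 1 more positively.

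Of 17 genes of the mitochondrial respiratory chain, 11 fell, against 13.2% of all genes, and 6 did not pass. The median was -0.68 in LEC and -0.71 in BEC. Sdhb, a subunit of succinate dehydrogenase, read 8.24, 8.27 and 8.42 and then 7.35, 7.36 and 7.21, so that it fell by 1.00 ± 0.13 (adjusted p = 0.00074). Uqcrfs1 and Uqcrc1, subunits of complex III, fell by 0.99 ± 0.12 and 0.96 ± 0.12. Atp5o, a subunit of ATP synthase, fell by 0.93 ± 0.13. Genes of the cytosolic ribosome, a set chosen after its values were seen, included 34 lower of 57, against 13.2% of all genes. Their median was -0.53. Rps21 had the largest fall among them, -1.79 ± 0.18. With a common median and interquartile range the set counted 23 lower and 3 higher, with a median of -0.20.

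Igf2bp1, an RNA-binding protein of fetal tissues, read 8.51, 8.69 and 8.42 at E16.5 against 7.26, 7.32 and 7.12 at E18.5, so that it fell by 1.31 ± 0.13 (adjusted p = 0.00026). It was 1 of 4 lower genes among 15 oncofetal regulators, against 13.2% of all genes. The others were Arid3b (-0.64 ± 0.13), Lin28b (-0.48 ± 0.15) and Dnmt1 (-0.47 ± 0.12). Without any single E16.5 array the list counted 2 lower genes, as Lin28b and Dnmt1 did not pass. Of the 3988 brightest genes 842 were lower. The list median was -0.11, and 0.034 when counted from the median change of each gene's group by level. Among 15 imprinted fetal growth genes, 2 fell, close to the 13.2% lower over all genes, Peg10 by 0.73 ± 0.15 and Meg3 by 0.51 ± 0.16. Meg3 was not called without any single E16.5 array or without E18.5 replicate 1 or 3 (adjusted p = 0.11 to 0.12). Igf2, a fetal growth factor, read 12.56 to 12.78 and 12.59 to 12.73, with overlapping arrays. Outside the list, Nnat, an imprinted membrane protein, fell by 1.85 ± 0.16.

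Lipid genes moved in both directions. Of 17 genes of cholesterol and fatty acid synthesis, 5 rose and 3 fell, against 10.1% and 13.2% of all genes. The median was 0.01. Hmgcs1, an early enzyme of the sterol pathway, read 8.96, 9.13 and 8.96 at E16.5 against 9.65, 9.87 and 9.85 at E18.5, a rise of 0.77 ± 0.13 (adjusted p = 0.0028). Idi1 rose by 0.99 ± 0.17 and the desaturase Scd1 by 1.24 ± 0.16. Dhcr7, the last enzyme of cholesterol synthesis, fell by 0.83 ± 0.12, and Fasn, fatty acid synthase, by 0.59 ± 0.13. Over the early step 10 of the 17 had fallen, against 7.29% of all genes. The late step differed from the early step by 1.51 ± 0.22 for Hmgcs1 (adjusted p = 0.0035) and by 0.98 for Msmo1, and 6 of the 17 passed that test in this direction, against 2.51% of all genes.

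The interferon response rose in nearly every gene measured. Of 19 genes, 17 rose and 2 did not pass, with a median of 1.32, against 10.1% higher and a median of 0.052 over all genes. Ifitm3, a membrane protein that blocks virus entry, read 9.29, 9.19 and 9.28 at E16.5 against 10.60, 10.83 and 10.92 at E18.5, a rise of 1.53 ± 0.13 (adjusted p = 0.00014). Ifit1, which binds foreign RNA, read 3.48, 3.43 and 4.12 and then 5.41, 6.29 and 6.39. It came from below the dim bound, and the rise was 2.35 ± 0.27 (adjusted p = 0.0005). Ifit3 rose by 1.83 ± 0.17, from 4.26 to 4.37 up to 5.79 to 6.37, also from below the bound.

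Oasl2, an antiviral protein of the oligoadenylate synthetase family, rose by 1.70 ± 0.20, and Xaf1 by 1.68 ± 0.18. The transcription factors of the pathway rose less, with Irf7 at 1.01 ± 0.21, Irf1 at 0.87 ± 0.14 and Irf9 at 0.85 ± 0.15. Stat2 (0.34 ± 0.15) and Bst2 (-0.05 ± 0.15) did not pass. The summed linear level of the list was 1956 to 2129 at E16.5 and 3594 to 4731 at E18.5. Leaving out any 1 array gave 15 to 18 higher genes, and the counts with a common median and with quantile normalization were 15 each. The helicase Ddx60 (2.46 ± 0.26) and the GTPase Iigp1 (2.24 ± 0.28), outside the list, were among the 25 largest rises of all genes. In BEC, 18 of the 19 rose, against 11.4% of all genes, with a median of 1.46.

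Interferon-stimulated genes carry a response element near the start, and the stretches of Ifit1 and Ifit3 are shown. Of the 4 list members with the largest rises, these held a match upstream of the start, and Oasl2 and Xaf1 held none. The ISRE-type motif, which is GAAA repeated after any 2 bases, on either strand, was in 9 of the 15 interferon genes with a RefSeq window (60.0%), against 4.0% of all genes. Each stretch holds a pair of matches, in capitals as their reverse complement. The Ifit1 stretch is chr19:34640764-34640853 and the Ifit3 stretch chr19:34583367-34583456, both on the plus strand of GRCm38.p6.
Ifit1: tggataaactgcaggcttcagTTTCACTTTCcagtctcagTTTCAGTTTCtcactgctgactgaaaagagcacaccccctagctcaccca
Ifit3: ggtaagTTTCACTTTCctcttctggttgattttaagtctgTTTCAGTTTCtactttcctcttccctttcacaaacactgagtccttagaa

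Immediate early genes, which are also induced when tissue is dissociated, were higher at E18.5. Of 16, 9 rose and 2 fell, against 10.1% and 13.2% of all genes, with a median of 0.56. Atf3 read 9.38, 9.71 and 9.38 and then 10.79, 10.71 and 10.64, a rise of 1.22 ± 0.14 (adjusted p = 0.00049). Egr2 rose by 1.21 ± 0.19 and Fos by 0.99 ± 0.13, from 10.74 to 10.81 up to 11.64 to 11.95. Ier3 fell by 1.10 ± 0.18. Without E16.5 replicate 3 the list counted 5 higher genes. In BEC 12 of the 16 rose, against 11.4% of all genes. Klf2, Klf4, Sele and Ccl2, described above, are themselves induced quickly in stressed cells, and the part of cell handling in their rises was not tested.

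Markers of other cell types changed in the LEC samples, and those of epidermis the most. Of 17 genes of basal keratinocytes and epithelium, 13 rose, against 10.1% of all genes. The other 4 did not pass, and the median was 1.63. Krt5, a keratin of basal epidermis, read 6.43, 6.33 and 8.29 at E16.5 against 9.58, 9.85 and 10.44 at E18.5, a rise of 2.94 ± 0.44 (adjusted p = 0.0017). E16.5 replicate 3 stood above its group in Krt5, and so it did in Krt14 (6.42 against 5.42 and 5.49), Krt17 and Krt79. Dsc3, a cadherin of epidermal desmosomes, read 4.07, 3.77 and 4.58 and then 7.85, 8.51 and 8.81, a rise of 4.25 ± 0.26 from below the dim bound (adjusted p = 3.8e-05). The adhesion molecule Epcam rose by 2.31 ± 0.20, and the epidermal regulator Trp63 by 1.63 ± 0.18.

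The summed linear level of the 17 genes was 1803 to 2336 at E16.5 and 3916 to 5608 at E18.5, and 3 of them (Dsg3, Dsc3 and Esrp1) had E16.5 means under the bound and none had E18.5 means under it. Whichever array was left out, 13 rose. Keratins of simple epithelium did not pass, with Krt8 at 0.21 ± 0.22, Krt18 at 0.01 ± 0.13 and Krt19 at -0.24 ± 0.17. In differentiating epidermis 4 of 17 rose, against 10.1% of all genes, among them Krtdap (1.83 ± 0.25). Krt10 read 5.40, 5.91 and 6.81 and then 6.08, 6.10 and 5.81 (adjusted p = 0.93). Without E16.5 replicate 1 or 2 or E18.5 replicate 3, the 4 became 1, 2 and 2. With quantile normalization it was 1.

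Of 13 hair follicle genes, 9 rose, against 10.1% of all genes, with a median of 0.81. Lhx2, a factor of follicle stem cells, rose by 1.78 ± 0.28, from 5.14, 5.19 and 5.62 to 6.51, 6.97 and 7.81. Krt25, a keratin of the inner root sheath, rose by 1.71 ± 0.22. The summed level of the 13 genes was 401 to 476 at E16.5 and 668 to 1047 at E18.5, with 5 and 2 members under the bound. Of 10 melanocyte genes, 4 rose, against 10.1% of all genes, with Dct, a melanin enzyme, higher by 1.67 ± 0.33. Without E16.5 replicate 1, 2 or 3 or E18.5 replicate 3, the melanocyte count became 1, 1, 2 and 2, and Pmel and Mlana lost their calls. Among the 25 largest rises of all genes, Krt79 (3.30 ± 0.32), Serpinb5 (3.13 ± 0.18), Krt17 (2.85 ± 0.37), Perp (2.67 ± 0.27), Epcam and Trim29 (2.16 ± 0.33), are epithelial genes. The part of epidermal and follicular cells in these and other rises was not tested.

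**Figure D4:**
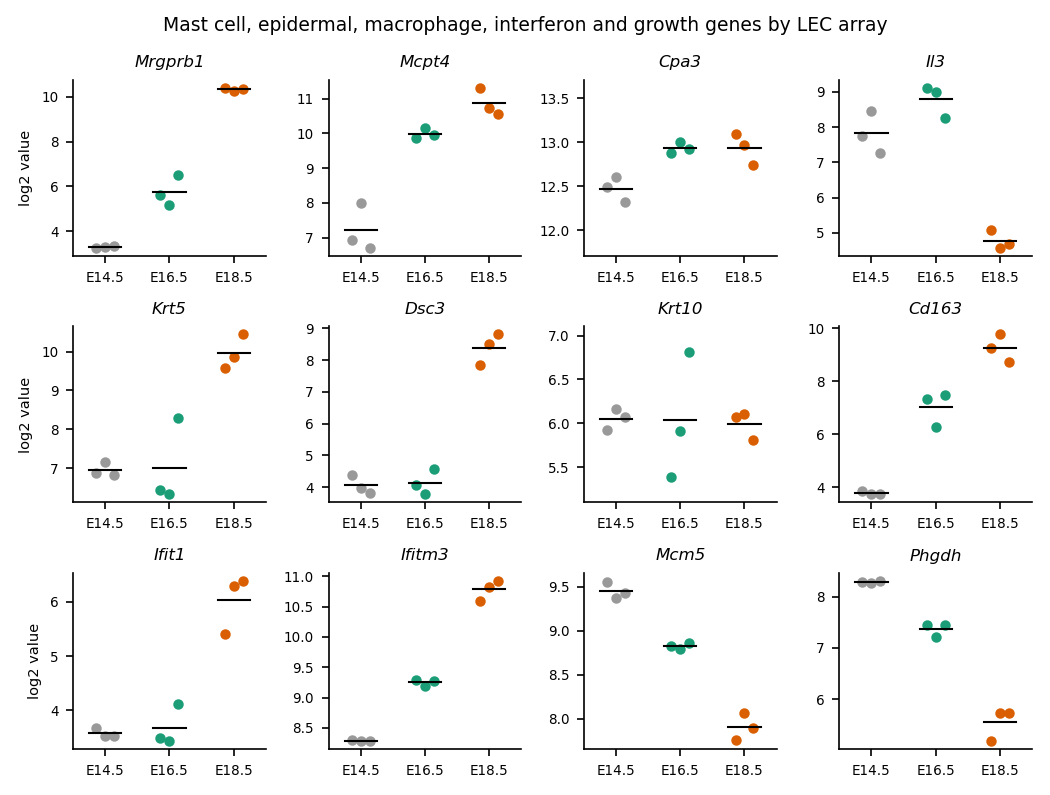
Log2 values of 12 genes of mast cells, epidermis, macrophages, the interferon response and growth on the 9 LEC arrays by age (points, 1 array each; lines, means of 3; axes differ between panels and span at least 2 log2 units). Mrgprb1 rose by 4.58 while Il3 fell by 4.01, Krt5 shows the high replicate 3 of E16.5, and Krt10 did not follow Krt5 and Dsc3.

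Mast cell genes changed in opposite directions. Of 12, 4 rose and 5 fell, against 10.1% and 13.2% of all genes, and 3 fell with a common median and interquartile range. The median was -0.25, and only Fcer1a was under the dim bound at both ages. Cpa3, a mast cell protease, read 12.87, 13.01 and 12.92 at E16.5 against 13.09, 12.96 and 12.74 at E18.5, with overlapping arrays (adjusted p = 1.0). Mrgprb1, a receptor of the Mrgpr family, read 5.62, 5.18 and 6.49 and then 10.39, 10.26 and 10.37, the largest rise of the genes named by the selection rule, 4.58 ± 0.27 (adjusted p = 3.7e-05). Mrgprb2, the receptor by which mast cells sense peptides, rose by 2.91 ± 0.23, and Mrgprx2 by 4.17 ± 0.16. Members of this family are related genes, and whether a probe of 1 binds another was not tested. Mcpt4, a chymase of connective tissue mast cells, rose by 0.87 ± 0.19.

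Tryptase and other mast cell genes fell. Tpsab1 read 7.46, 8.06 and 7.87 and then 6.53, 6.23 and 6.21, so that it fell by 1.47 ± 0.17 (adjusted p = 0.00056). Cma1 fell by 0.92 ± 0.14, and the receptor Kit by 0.63 ± 0.14. Hdc, which makes histamine, was lower by the test (-0.49 ± 0.13), a call lost without E16.5 replicate 1 or 3 or E18.5 replicate 2 or 3 (adjusted p = 0.055 to 0.094). With a common median and interquartile range neither Kit (-0.29) nor Hdc (0.021) was called. The largest fall of all genes under the rule was that of Il3, a cytokine for mast cells and basophils, which read 9.11, 9.01 and 8.26 and then 5.09, 4.57 and 4.69. It fell by 4.01 ± 0.23 (adjusted p = 3.7e-05). Also among the 25 largest falls were Prss34 (-2.66 ± 0.17), a protease of mast cells and basophils, the succinate receptor Sucnr1 (-2.71 ± 0.29), the chemokine receptor Ccr8 (-2.13 ± 0.15) and Tph1 (-1.82 ± 0.17), the enzyme that starts serotonin synthesis. Tac1, the gene of the neuropeptide substance P, rose by 2.95 ± 0.34, from 4.81, 4.85 and 5.07 to 8.82, 7.14 and 7.61.

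Of 17 macrophage markers, 6 rose and 1 fell, with a median of 0.76, against 10.1% higher and 13.2% lower over all genes. Without E16.5 replicate 2 the median was 0.311, with 5 higher. Cd163, a scavenger receptor of resident macrophages, read 7.35, 6.26 and 7.50 at E16.5 against 9.25, 9.76 and 8.74 at E18.5, a rise of 2.21 ± 0.33 (adjusted p = 0.0016). Cd68 rose by 1.73 ± 0.24. Cx3cr1, a chemokine receptor, fell by 1.09 ± 0.19, from 8.08 to 8.64 down to 6.88 to 7.41. Csf1r and Adgre1, defining receptors of the lineage, did not pass, with adjusted p-values of 0.14 and 0.17. E16.5 replicate 2 read lowest of its group in Cd163, Csf1r, Adgre1 and F13a1, and F13a1 (1.26 ± 0.38) was not called without it (0.73, adjusted p = 0.051) or without E18.5 replicate 1 or 2 (adjusted p = 0.082 and 0.13). The summed linear level of the list was 3459 to 6753 at E16.5 and 7480 to 11724 at E18.5.

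Of the remaining cell types, lymphocyte and leukocyte genes counted 2 higher and 4 lower of 14, against 10.1% and 13.2% of all genes. Among the lower ones were Nkg7, a granule protein, at -2.59 ± 0.17 and the actin regulator Coro1a at -1.72 ± 0.17. Ptprc, the common leukocyte antigen, did not pass (adjusted p = 0.97). Among 14 fibroblast genes 2 rose and 3 fell, shares near those of all genes, with Dcn higher by 1.58 ± 0.21. No lower fibroblast gene passed without E16.5 replicate 1 or 3 or E18.5 replicate 1, and 1 passed without E18.5 replicate 3. Among 13 mural cell genes 2 rose and 1 fell, also near the shares of all genes. The lower mural gene was Pdgfrb, the receptor of pericytes, which read at least 7.84 on each E16.5 array and then 6.46, 6.29 and 6.01, so that it fell by 1.68 ± 0.14. Of the lists for neutrophils, lung epithelium and hepatocytes, 8 of 12, 5 of 9 and 5 of 8 members had E16.5 means under the dim bound.

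The change in LEC was set against that of BEC over the same days, in which 4714 genes (23.6%) were called. The test of the difference between the changes was passed by 351 genes (1.76%), with the change more positive in LEC for 144 (0.722%) and more negative for 207 (1.04%). Of the 351, 247 also changed in LEC by themselves. Leaving out 1 of the 12 arrays gave 179 to 456 genes, with the fewest without LEC E16.5 replicate 1. The count fell by over 1.5 times also without LEC E16.5 replicate 2 (227), BEC E16.5 replicate 1 (206), 2 (199) or 3 (193) and BEC E18.5 replicate 2 (189).

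Il6, a cytokine, showed the widest difference. It read 8.75, 8.93 and 7.99 and then 7.87, 7.65 and 6.35 in LEC, and 5.10, 6.12 and 5.12 and then 9.05, 9.53 and 9.04 in BEC. The LEC arrays fell and the BEC arrays rose, and the changes differed by -5.02 ± 0.52 (adjusted p = 0.00064). The fall in LEC by itself (-1.26 ± 0.36, adjusted p = 0.031) was lost without LEC E16.5 replicate 1 or 2 or E18.5 replicate 3, with adjusted p-values of 0.085, 0.1 and 0.053. Pdgfrb fell by 1.68 ± 0.14 in LEC and rose by 0.99 ± 0.11 in BEC, a difference of -2.67 ± 0.18 (adjusted p = 9e-06). Neurl3, a ubiquitin ligase, likewise fell in LEC (-1.19 ± 0.15) and rose in BEC (0.66 ± 0.11). Cxcl10, an interferon-induced chemokine, rose in both, by 1.32 ± 0.30 in LEC and by 3.30 ± 0.15 in BEC, and its difference of -1.98 ± 0.38 was not called without LEC E16.5 replicate 1 or BEC E18.5 replicate 2 (adjusted p = 0.052 and 0.055).

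The receptors Mrgprx2, Mrgprb1 and Mrgprb2 rose more in LEC, with differences of 3.14 ± 0.53, 2.90 ± 0.61 and 2.56 ± 0.45. In BEC, Mrgprb2 read 3.28, 3.51 and 3.70 and then 4.73, 3.26 and 3.57, where only replicate 1 of E18.5 was above the dim bound. Dsc3 differed by 2.18 ± 0.47. The differences of Mrgprb1 and Dsc3 were lost in 9 and 7 of the 12 fits that left out an array, with adjusted p-values up to 0.075 and 0.076. The basal keratinocyte list as a whole rose in both cell types. In BEC 13 of 17 were higher as well, against 11.4% of all genes, with a median there of 0.93. The test of the difference was passed by 2 of the 17, against 1.76% of all genes.

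**Figure D5:**
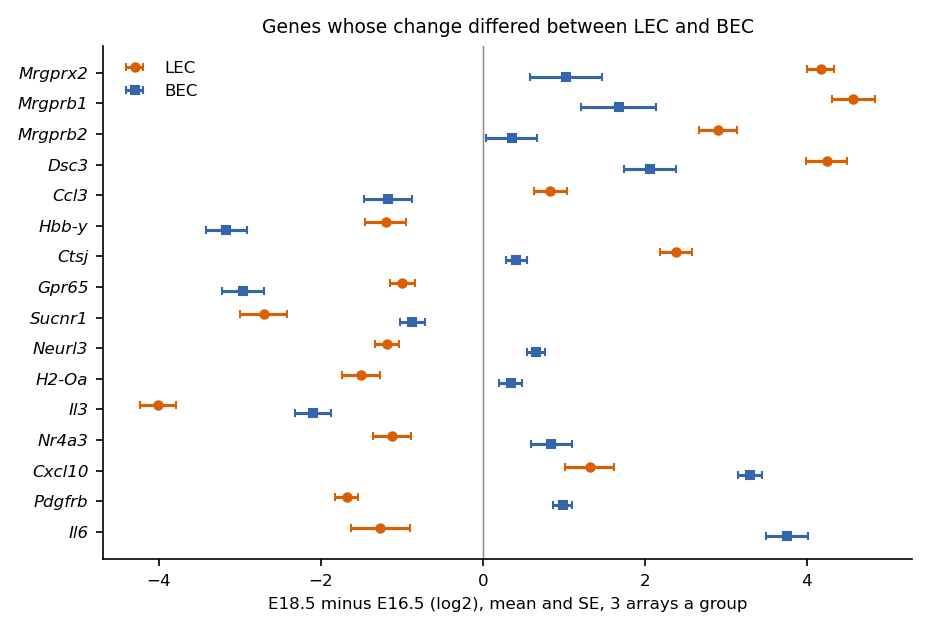
E18.5 minus E16.5 difference (log2, mean and limma SE) in LEC and BEC, 3 arrays a group, for the 16 genes with the largest differences between the 2 changes among those that also changed in LEC. Il6, Pdgfrb, Nr4a3 and Neurl3 fell in LEC and rose in BEC, and the Mrgpr genes rose more in LEC.

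Among the lists, sterol synthesis differed between the vessel types. The difference was passed by 5 of 17 genes, all more positive in LEC, against 0.722% of all genes. These genes, named after their values were seen, were Cyp51 (1.34 ± 0.25), Idi1 (1.28 ± 0.26), Hmgcs1 (1.04 ± 0.19), Msmo1 (1.03 ± 0.22) and Sqle (0.84 ± 0.15). In LEC by itself, all but Sqle (-0.05) were called as higher, Cyp51 by 0.53. Msmo1 rose by 0.69 in LEC and changed by -0.35 in BEC. In BEC 1 of the 17 genes rose and 6 fell, against 11.4% and 12.3% of all genes, with a median of -0.339. The median in LEC was 0.01. Without LEC E16.5 replicate 1 or 3, LEC E18.5 replicate 2 or BEC E16.5 replicate 2, the test of the difference was passed by 3. Antigen presentation went the other way, with the change more negative in LEC for 4 of 13 genes, against 1.04% of all genes. They were the proteasome subunits Psmb8 (-1.56 ± 0.21) and Psmb9 (-0.90 ± 0.16) and the peptide transporters Tap1 (-1.24 ± 0.26) and Tap2 (-0.89 ± 0.18), also named after their values were seen. The antigen count was 2 without LEC E16.5 replicate 1 or 3, BEC E16.5 replicate 2 or 3 or BEC E18.5 replicate 2 or 3. Tap1 read 6.28, 6.02 and 6.47 and then 6.09, 6.40 and 6.53 in LEC, with overlapping arrays. In LEC by itself, Psmb9 (0.001), Tap1 (0.083) and Tap2 (-0.337) were not called. There 3 of the 13 genes rose and 2 fell, against 10.1% and 13.2% of all genes, with a median of -0.036. In BEC 8 rose and 0 fell, against 11.4% and 12.3% of all genes, with a median of 0.559. The listed genes H2-K1, H2-D1, H2-Q7 and H2-T23 have no single-gene probe set in the annotation used.

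Against the step before, from E14.5 to E16.5, in which 3279 genes (16.4%) were called in LEC, 1357 genes (6.81%) changed differently. The late step was more positive for 501 (2.51%) and more negative for 856 (4.29%). The 2 steps share the E16.5 arrays, so a high or low reading there enters both with opposite sign. Leaving out 1 array gave 287 to 1780 genes. Without LEC E16.5 replicate 1, 2 or 3 the count was 287, 716 and 565, and without LEC E14.5 replicate 1, 2 or 3 it was 745, 840 and 625.

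For epidermal genes the steps differed. Of the 17 basal keratinocyte genes, 10 passed the test as more positive at the late step, against 2.51% of all genes. Over the early step 1 had risen, against 9.16% of all genes. Dsc3 read 4.38, 3.97 and 3.83 at E14.5, and its steps of 0.08 ± 0.21 and 4.25 ± 0.26 differed by 4.16 ± 0.44 (adjusted p = 0.00074). Perp (3.07 ± 0.45) and Serpinb5 (2.88 ± 0.29) passed the same test. Krt79 differed by 2.95 ± 0.54 and was not called without LEC E16.5 replicate 1 (adjusted p = 0.065).

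Mast cell genes also differed between the steps. Of the 12, 10 rose over the early step, against 9.16% of all genes, with a median of 0.92. The test was passed as more negative at the late step by 6, against 4.29% of all genes. Il3 read 7.76, 8.46 and 7.27 at E14.5, and its steps of 0.96 ± 0.31 and -4.01 ± 0.23 differed by -4.97 ± 0.49 (adjusted p = 0.00058). Sucnr1 rose by 1.08 ± 0.22 and then fell by 2.71 ± 0.29. The chemokine-binding receptor Ccrl2 rose by 1.26 ± 0.18 and then fell by 1.91 ± 0.13, and Rgs13, a regulator of G protein signalling, rose by 1.44 ± 0.16 and then fell by 1.65 ± 0.15. The interferon list had 5 of 19 genes higher over the early step and 17 over the late step, against 9.16% and 10.1% of all genes. The test of the difference was passed by 5, all more positive at the late step, against 2.51% of all genes.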

How the data were processed

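RNA was measured on Affymetrix Mouse Gene 1.0 ST arrays. The authors deposited expression on the log2 scale, made by RMA in the package oligo (version 1.54.1), as the submitters' processing notes name them; whether all arrays were normalized together is not given in the sources used here. Arrays give no read depth, and their number limits the precision. Of 35556 transcript clusters, 21789 had 1 gene symbol, and the brightest of a gene gave 19938 genes, with no filter on dim genes. Group means of the 6 LEC arrays were fitted with limma 3.58.1 in R 4.3.3 (lmFit, eBayes, two-sided, 4 residual degrees of freedom), with Benjamini-Hochberg adjustment over all genes. The difference between LEC and BEC changes was fitted on 12 arrays, and that between the LEC steps on 9. The fit was tested on simulated data. Errors are limma SE unless given as SD.

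The 48 gene lists (700 of 750 genes measured) and the members were chosen with earlier results of these data known; some genes are in several lists, such as Gata2 and Mrc1. List counts have no test of their own. Genes were named by a rule: the 25 largest rises and falls without overlap, the 4 largest called changes of each list, all identity and valve genes, and the largest differences from BEC (8 each way) and from the early step (5 each way), passing over predicted genes and genes under the dim bound. Other list members in the text were chosen after their values were seen. Alternatives were other scalings, filters, variance models, array weights, a replicate block and leaving out arrays.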

Additional observations from a re-analysis of the deposited data

Results flagged for a closer look

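Genes whose change differed between groups by a test of the difference itself are given here, and their causes were not tested. The late change of LEC exceeded that of BEC for Mrgprx2 (3.14), Mrgprb1 (2.90), Mrgprb2 (2.56), Dsc3 (2.18), Ccl3 (2.01), Hbb-y (1.97), Ctsj (1.97) and Gpr65 (1.97) on the log2 scale. It lay below that of BEC for Il6 (-5.02), Pdgfrb (-2.67), Cxcl10 (-1.98), Nr4a3 (-1.97), Il3 (-1.91), H2-Oa (-1.85), Neurl3 (-1.85) and Sucnr1 (-1.84). Hbb-y, an embryonic globin, and Gpr65 fell in both cell types, and less in LEC (-1.20 and -0.99) than in BEC (-3.17 and -2.96). Ccl3 rose in LEC by 0.84 ± 0.20 and fell in BEC (-1.17 ± 0.29), and the rise in LEC was not called without LEC E16.5 replicate 3 (adjusted p = 0.058).

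The late LEC step exceeded the early one for Dsc3 (4.16), Perp (3.07), Macrod2 (2.95), Krt79 (2.95) and Serpinb5 (2.88). It lay below the early one for Il3 (-4.97), Sucnr1 (-3.78), Smpx (-3.22), Ccrl2 (-3.17) and Rgs13 (-3.09). Macrod2 fell by 1.34 ± 0.22 over the early step and rose by 1.61 ± 0.24 over the late one. Groups of 3 arrays are too small for a test of single outlying arrays.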

How the results depend on the processing

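Genes higher and lower in LEC, 2011 and 2634 as reported, became 3170 and 3684 with all 18 arrays in the fit, 1201 and 3838 with a common median, 1477 and 2325 with quantile normalization, and 689 and 1340 without moderation of the variance, where fewer degrees of freedom remain. Leaving out 1 array gave 1028 to 2192 higher and 1468 to 2400 lower genes. The LEC minus BEC test gave 728 genes with all 18 arrays and 179 to 456 with an array left out. The test between the LEC steps gave 2113 with all 18 arrays, 825 with quantile normalization, 2086 with a common median and 287 to 1780 with an array left out. The fall of the interquartile range was -0.361 over genes and -0.292 over all rows. The median change of the brightest minus that of the dimmest of 5 equal groups of genes was -0.283 and, with quantile normalization, -0.015. Of 206 called genes that the naming rule selected, 155 were called whichever of the 6 arrays was left out, and none of the fits reversed a call.

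The replicate numbers were tried as a pairing. Deviations of same-numbered LEC arrays of E16.5 and E18.5 correlated at 0.019, 0.014 and 0.071, and those of LEC and BEC at -0.043, 0.103 and 0.101 (E16.5) and 0.072, -0.107 and -0.018 (E18.5), so the numbers were not taken to pair arrays. With the replicate block, 1937 genes were higher and 2473 lower, the LEC minus BEC test gave 253 and the test between steps 1133.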

Other observations

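Of 14 genes of fatty acid uptake and handling, 5 rose and 1 fell, with a median of 0.08, against 10.1% higher, 13.2% lower and a median of 0.052 over all genes. Pparg, the factor of fat storage genes, read 7.88, 7.50 and 7.73 at E16.5 against 8.29, 8.60 and 8.59 at E18.5, a rise of 0.79 ± 0.15 (limma adjusted p = 0.0051). Fabp4, a fatty acid carrier, rose by 0.81 ± 0.14. No E18.5 array of either gene reached into the E16.5 range. The count of higher genes was 3, 2, 3 and 2 without E16.5 replicate 1 or 2 or E18.5 replicate 2 or 3. Of 17 genes of fatty acid oxidation, 1 rose and 5 fell, against 10.1% and 13.2% of all genes, with a median of -0.134. No rise was called in 5 of the 6 fits that left out an array. The largest falls were those of Acads, a short-chain dehydrogenase, at -1.12 ± 0.15 and the electron carrier Etfb at -0.97 ± 0.12. The count of lower genes was 3 without E16.5 replicate 1 or 3 or E18.5 replicate 2. In BEC 0 of these 17 rose and 7 fell, against 11.4% and 12.3% of all genes, with a median of -0.241.

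In the unfolded protein response, 1 of 14 genes rose and 5 fell, against 10.1% and 13.2% of all genes. Dnajb9, a chaperone of the endoplasmic reticulum, read 8.21, 8.41 and 8.22 and then 10.18, 9.69 and 9.64, a rise of 1.55 ± 0.16 (limma adjusted p = 0.00033), while Sdf2l1, another such protein, fell by 1.34 ± 0.13. These members moved apart, and leaving out any 1 array gave 1 to 3 lower genes. Among 21 genes of the glucocorticoid and circadian response, 4 rose and 2 fell, against 10.1% and 13.2% of all genes. The clock repressor Nr1d2 rose by 1.11 ± 0.14 and the metal-binding Mt2 by 1.69 ± 0.28, while Fkbp5, a target of the glucocorticoid receptor, fell by 0.62 ± 0.12. In BEC 12 of the 21 rose and 0 fell, against 11.4% and 12.3% of all genes. Over the early LEC step 10 rose and 0 fell, against 9.16% and 7.29%. Among 22 regulators of the G1 phase, 2 rose and 3 fell, in all near the 23.3% called over all genes, with the kinase Cdk4 at -0.93 ± 0.15. Neither rise was called without E16.5 replicate 1 or 3 or E18.5 replicate 2, or with a common median. In the WNT list 4 of 19 rose and 1 fell, against 10.1% and 13.2% of all genes, with the receptor Fzd6 higher by 0.85 ± 0.14.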
